A study of Mus musculus with 2 samples.

Results

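Oxidative phosphorylation, the last stage of respiration, takes place in the inner membrane of mitochondria. Complexes I and II pass electrons from NADH and succinate to ubiquinone, complex III hands them to cytochrome c, and complex IV gives them to oxygen. The proton gradient that complexes I, III and IV build drives complex V, the ATP synthase, and tissue-specific isoforms of complex IV are known mainly from muscle, lung and testis. The genes described here are all nuclear genes whose symbol starts with Nduf, with Sdh followed by a to d, with Uqcr, with Cox followed by a digit, or with Atp5. They numbered 103 of the 23393 genes in the taste table, and all 103 were also in the ganglion table, which had 23391 genes. By function they were 36 genes of complex I, 4 of complex II, 8 of complex III, 20 of complex IV, 15 of complex V and 20 assembly or accessory factors. Ndufa4, Ndufa4l2 and Cox7a2l were counted with complex IV, where their proteins are placed now despite older names. The 13 subunits encoded by mitochondrial DNA were not analysed here.

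All mice were C57BL/6. In Pkd2l1-tdTomato mice a red fluorescent protein marks sour taste receptor cells, the acid-sensing (type III) cells of taste buds; sorted tongue epithelium gave tdTomato+ pools (sour pools), tdTomato- pools (control pools), which the labels describe as taste cells other than sour ones together with supporting cells, and single tdTomato+ cells, all made with a SMART-Seq kit that copies whole transcripts. In P2rx3-tdTomato mice, tdTomato+ neurons of the geniculate ganglion, which carries taste from the tongue to the brainstem, were picked by hand and sequenced by CEL-Seq, which tags the 3′ end of transcripts. The labels give no age. Whether different pools or experiments used different animals is not stated, so each p-value weighs a difference against library-to-library spread alone. The labels also do not state which promoter fragment or allele drives tdTomato in either line.

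The table held 2 sour and 4 control pools, numbered by their place in the labels (control pools 1, 2, 4 and 6), with 188502 to 680952 gene reads. Sour pool 1 and control pools 1 and 2 were on plate 1, control pool 4 on plate 2, and sour pool 2 and control pool 6 on plate 3. Of 56 single sour cells, 52 had at least 1000 genes and were used, with a median of 475249 gene reads. Of 454 ganglion neurons, 371 had at least 2000 genes, with a median of 1091184 gene reads. Defining markers followed the labels: all 9 type III taste genes tested rose in the sour pools, with summed levels of 13936 and 20347 CPM (reads per 1000000 gene reads) against 2.94 to 26.2 CPM in the control pools. In the same comparison 4 of 4 tested keratinocyte genes, 6 of 6 basal cell genes and 6 of 6 cell cycle genes fell. Their summed levels were 1659 and 2207 CPM against 38752 to 58885 CPM for keratinocyte genes, 233 and 265 against 33809 to 44573 CPM for basal genes, and 17.4 and 21.2 against 1644 to 2118 CPM for cell cycle genes. Markers of the other taste cells were low in the control pools, with summed levels of 48.1 to 176 CPM for 6 type II genes and 200.5 to 660 CPM for 4 type I genes, against 32.2 and 63.7 CPM and 31.8 and 94.3 CPM in the sour pools. Of the cell type lists, those of keratinocyte and basal genes had the highest summed levels in the control pools. The part of these markers in the results below was not tested. Col17a1, Mki67 and Cdk1 were at 0 in both sour pools, while Ivl was at 0 in every pool. Sour pool 1 also carried 4120 CPM of 6 myeloid genes, of which Lyz2 made up 3822 CPM. Sour pool 2 had 5.31 CPM of them and the control pools 48.5 to 1399 CPM. Stromal and endothelial genes summed to 483 to 551 CPM in the sour pools against 2338 to 2896 CPM, with 1 of 2 tested higher and 1 lower. Satellite glia and Schwann genes summed to 47.7 to 1074 CPM against 1332 to 2496 CPM, with 0 of 3 tested called. In pools, fewer cells of a type and less RNA per cell cannot be told apart.

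Sour and control pools differed at few of these genes. Of the 103, 89 had enough reads to be tested with edgeR's quasi-likelihood test, and 3 rose and 6 fell in the sour pools at a Benjamini-Hochberg adjusted p under 0.05. Over all 7739 genes tested, 15.1% rose and 14.5% fell. The genes that fell were Ndufa10, Ndufb8 and Ndufs6 of complex I, Uqcrc1 of complex III, Ndufa4l2 of complex IV and Atp5o of complex V. Those that rose were Sdha of complex II and the assembly factors Ndufaf3 and Sdhaf1. DESeq2, the other tool run, gave 2 higher and 7 lower. The shares over all genes just given are those of edgeR alone, so the DESeq2 counts are not set against a share. Leaving out 1 library changed these counts: they were 1 and 2 without sour pool 1, 1 and 5 without sour pool 2, and 1 and 3 without control pool 1. At an unadjusted p under 0.05 the edgeR test gave 18 of the 89 genes, against 38.9% of all genes.

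**Figure D1:**
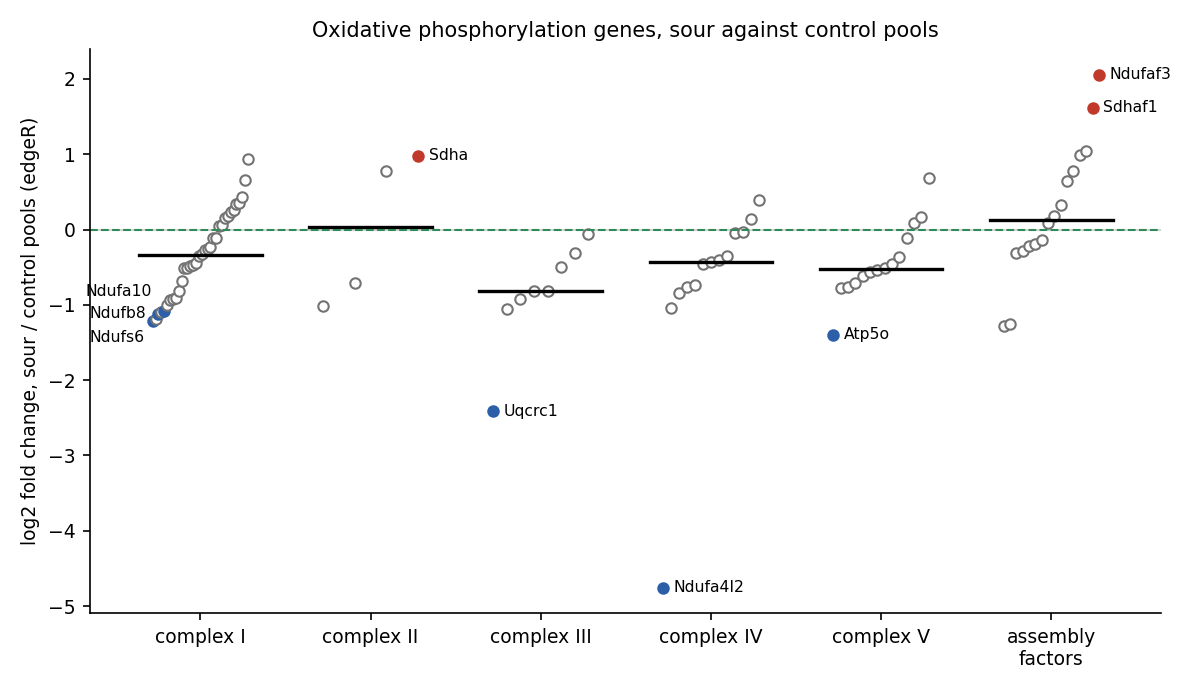
Log2 fold change of each of the 89 tested genes (points; vertical axis, sour over control pools, edgeR) by complex (horizontal axis). Filled points are the 3 genes that rose (red) and the 6 that fell (blue), black lines are complex medians and the dashed green line is the median of all tested genes; complex III has all 8 points below 0.

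The median log2 fold change of the 89 genes was -0.36, against -0.01 over all genes. By complex the medians were -0.33 for complex I (34 tested), 0.03 for complex II (4), -0.82 for complex III (8), -0.44 for complex IV (13), -0.52 for complex V (14) and 0.13 for the assembly factors (16). Among subunits, 55 of 73 (75.3%) had a fold change below 0, against 50.2% of all genes, and the assembly factors had 7 of 16. The size of this shift rested on sour pool 1: the median was -0.03 without it and -0.79 without sour pool 2. Both sour pools lay below all 4 control pools for 23 of the 89 genes and above all 4 for 9, against 22.9% and 25.6% of all genes.

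All 103 genes together took 1.44% and 2.05% of gene reads in sour pools 1 and 2. The shares were 2.18%, 2.29%, 2.85% and 1.95% in control pools 1, 2, 4 and 6. Sour pool 1 was below every control pool, and sour pool 2 lay within their range. Single sour cells ranged from 0.866% to 2.70%, with a median of 1.56%.

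**Figure D2:**
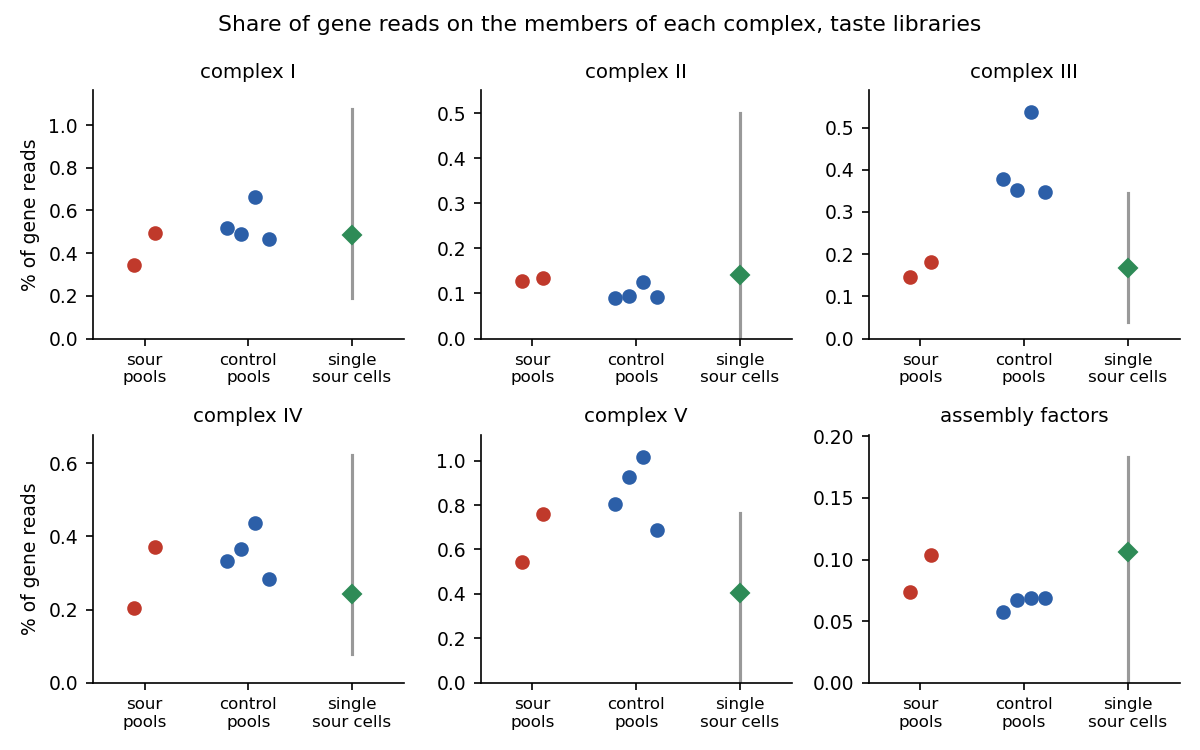
Percent of gene reads on the genes of each complex (vertical axes, each from 0) in the 2 sour pools (red), the 4 control pools (blue) and the 52 single sour cells (green diamond, median; grey line, lowest to highest). Complex III is lower in both sour pools (0.146% and 0.181%) than in any control pool (0.347% to 0.538%), and complex II is not.

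Complex I, the entry point for electrons from NADH, had 34 of 36 genes tested, with 0 higher and 3 lower. Of its 7 catalytic core genes 0 passed edgeR's test, 2 had an unadjusted p under 0.05 and DESeq2 called 1. That gene, Ndufv1, which carries the NADH site, had 233 and 318 CPM in the sour pools and 510, 459, 649 and 416 CPM in control pools 1, 2, 4 and 6 (log2 fold change -0.92, SE 0.34, edgeR adjusted p = 0.0526). The 3 that fell are accessory subunits, which surround the core. Ndufa10 had 151 and 175 CPM in the sour pools and 386, 283, 380 and 294 CPM in the control pools (log2 -1.08, SE 0.34, edgeR adjusted p = 0.0270). Ndufb8 had 122 and 95.5 CPM in the sour pools and 245, 218, 283 and 192 CPM in the control pools (log2 -1.12, SE 0.36, edgeR adjusted p = 0.0307). Ndufs6, an accessory subunit that binds zinc, had 67.0 and 63.7 CPM in the sour pools and 138, 176, 179 and 105 CPM in the control pools (log2 -1.21, SE 0.42, edgeR adjusted p = 0.0411). For all 3 the sour pools lay below the control pools, with no overlap. Each call was lost without either sour pool (edgeR adjusted p from 0.0919 to 0.189) and without control pool 1, and Ndufs6 had its call in 5 of 12 alternative analyses. The other complex I genes tested ranged from -1.19 (Ndufb6) to 0.94 (Ndufc2) on the log2 scale.

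Ndufs5, a small accessory subunit of complex I, was listed at 0 in all 516 libraries of both tables. Of its 50-base transcript windows, 31.1% also occurred in another annotated gene (BC002163).

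Complex II, succinate dehydrogenase, is the one complex with no subunit encoded in mitochondria and also works in the citric acid cycle. Of its 4 genes, 1 rose and 0 fell. Sdha, the flavin-carrying catalytic subunit, had 858 and 695 CPM in sour pools 1 and 2, and 357, 378, 417 and 393 CPM in control pools 1, 2, 4 and 6. The sour pools were all higher, 2.01-fold on average (log2 0.98, SE 0.29, edgeR adjusted p = 0.0183), with a ratio of 2.34 within plate 1 and 1.77 within plate 3. Its call was lost without sour pool 1 (adjusted p = 0.206), without control pool 1 (adjusted p = 0.0645) and with no filter on low counts (adjusted p = 0.0553). Sdhb, the iron-sulfur partner of Sdha, did not pass the test, at 166 and 202 CPM in the sour pools against 276, 294, 545 and 335 CPM (log2 -1.02, SE 0.38, edgeR adjusted p = 0.0597). Sdhd, a membrane anchor, had 208 and 366 CPM against 176, 152, 195 and 128 CPM (log2 0.77, edgeR adjusted p = 0.122). Sdhc, the other anchor, overlapped between groups (log2 -0.71, edgeR adjusted p = 0.317). Complex II held 0.127% and 0.134% of reads in the sour pools against 0.0890% to 0.125% in the control pools; without Sdha the shares were 0.0412% and 0.0647% against 0.0532% to 0.0837%, and the groups overlapped.

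Complex III, the cytochrome bc1 complex, had the lowest median of the complexes and the gene with the clearest fall. Uqcrc1, a core protein facing the matrix (chr9:108936633-108949623, plus strand, GRCm38), had 489 and 424 CPM in sour pools 1 and 2. Control pools 1, 2, 4 and 6 had 2338, 2060, 3127 and 2036 CPM. The control pools were all higher, 5.24-fold on average (log2 -2.41, SE 0.36, edgeR adjusted p = 0.000158), and the sour-to-control ratio was 0.222 within plate 1 and 0.208 within plate 3. The call held in all 12 alternative analyses, with log2 fold changes from -2.57 to -2.21. Single sour cells gave a level near that of the sour pools, with reads in 47 of 52 cells (90.4%, exact 95% interval 79.0% to 96.8%) a median of 334 CPM per cell and 455 CPM over their pooled reads. Uqcrc1 alone made up 58.1% to 62% of complex III reads in control pools and 33.4% and 23.5% in the sour pools. It ranked high among all 103 genes per transcript length in the control pools, at 1446 CPM per kilobase, after Atp5b at 1756.

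Of the other 7 complex III genes 0 passed edgeR's test, 1 (Uqcrh) had an unadjusted p under 0.05 and was called by DESeq2, and all 7 had fold changes below 0, from -1.06 (Uqcrh) to -0.05 (Uqcrfs1, the Rieske iron-sulfur protein). Uqcrh, the hinge protein, had 141 and 228 CPM in the sour pools against 303, 346, 532 and 308 CPM (SE 0.38, edgeR adjusted p = 0.05005, just over the threshold). Without Uqcrc1, complex III still held less of the reads in both sour pools (0.0975% and 0.139%) than in the control pools (0.144% to 0.225%), although sour pool 2 and the lowest control pool were close. Cyc1, cytochrome c1, is also a subunit of complex III but falls outside the naming rule, and it was picked here after its values were seen. It had 179 and 276 CPM in the sour pools and 539, 501, 612 and 378 CPM in the control pools (log2 -1.20, SE 0.35, edgeR adjusted p = 0.0178).

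**Figure D3:**
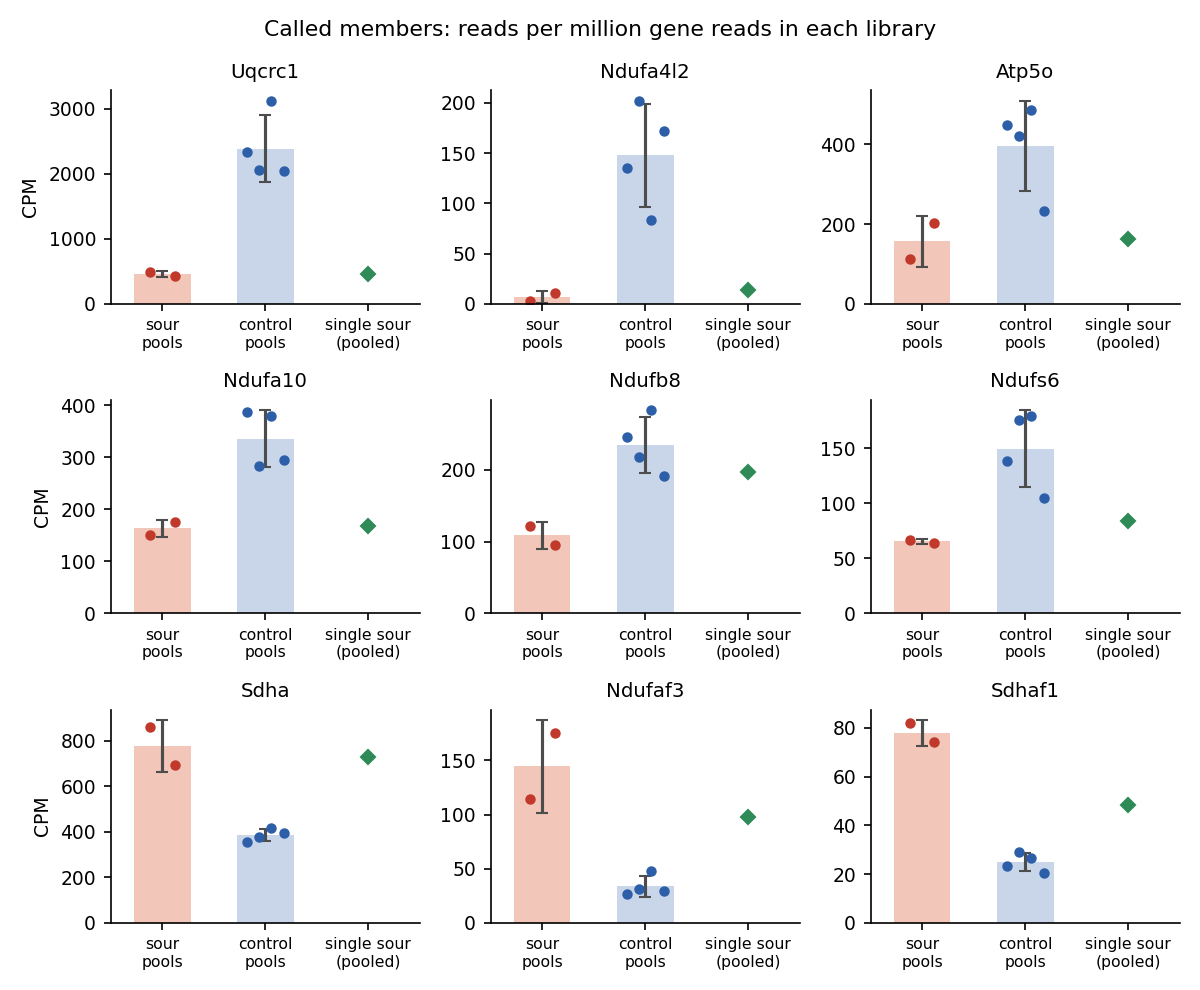
CPM (vertical axes, each from 0) of the 9 genes that rose or fell, in sour pools (red points; bar, mean; whisker, SD, n = 2), control pools (blue points; bar, mean; whisker, SD, n = 4) and over the pooled reads of 52 single sour cells (green diamond). Uqcrc1 and Ndufa4l2 show the widest gaps, and the pooled single cells lie above every control pool for Ndufaf3 (97.4 CPM) and Sdhaf1 (48.5 CPM) but within the range of the control pools for Ndufb8 (197 CPM).

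Complex IV, cytochrome c oxidase, had 13 of 20 genes tested, and 1 fell. That gene was Ndufa4l2 (chr10:127514967-127517154, plus strand, GRCm38), a paralog of the subunit gene Ndufa4 that is known as a target of hypoxia-inducible factor. It had 1 and 2 reads in the sour pools (2.48 and 10.6 CPM), and 135, 202, 82.9 and 172 CPM in control pools 1, 2, 4 and 6. With 3 sour reads against 259 control reads, the ratio of control to sour was 28.7, with a counting interval of 9.71 to 140 (95%, exact). The edgeR log2 fold change was -4.75 (SE 0.73, adjusted p = 0.000215), and the call held in all 12 alternative analyses. Reads of Ndufa4l2 were seen in 8 of 52 single sour cells (15.4%, exact interval 6.88% to 28.1%), and 1 cell held 56.3% of them. Ndufa4 itself was at 131 and 223 CPM in the sour pools and 147, 102, 262 and 111 CPM in the control pools, with full overlap (edgeR adjusted p = 0.857). Per transcript length, Ndufa4l2 made up 17.1% to 56.3% of the pair's summed level in control pools and 1.22% and 3.02% in the sour pools.

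Of the 11 widely used complex IV subunits, 0 passed edgeR's test or DESeq2's, and 1 (Cox5b) had an unadjusted p under 0.05. Cox4i1, the largest of the nuclear-encoded subunits, had 801 and 1183 CPM in the sour pools and 996, 1063, 1168 and 785 CPM in the control pools (log2 -0.05, SE 0.32, edgeR adjusted p = 0.932). The groups overlapped. Fold changes of the 11 ran from Cox5b (log2 -1.04, edgeR adjusted p = 0.107) to Cox7c (0.39, adjusted p = 0.732). Of the 50-base windows of Cox7c, 53% also occur in another annotated gene, so its counts are uncertain.

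The muscle, lung and testis forms of complex IV were nearly absent from the tongue libraries. Cox4i2 (lung form), Cox6a2 and Cox8b (heart and skeletal muscle forms), Cox7b2 and Cox8c (testis forms) had 0 reads in all 6 pools and in all 52 single cells. For counting error only, this allows a share of up to 6.85% of cells with a read (upper end of the exact 95% interval). Cox7a1, the heart and muscle form of Cox7a, had 1 read in the sour pools, 2 in the control pools and reads in 2 of 52 cells. Cox6b2, a testis form, had 3 reads in the sour pools and 12 in the control pools (control-to-sour ratio 1.33, 95% counting interval 0.359 to 7.34). By contrast the widely used partners Cox6a1, Cox7a2, Cox8a and Cox4i1 were seen in 46 to 49 of 52 cells. Cox7a2l, a paralog of Cox7a2 that works in supercomplex assembly, was seen in 46 cells.

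Complex V, the ATP synthase, had 14 of 15 genes tested, and 1 fell. Atp5o, the stalk subunit that confers oligomycin sensitivity, had 112 and 202 CPM in sour pools 1 and 2 and 448, 420, 486 and 233 CPM in control pools 1, 2, 4 and 6. The groups did not overlap (log2 -1.40, SE 0.41, edgeR adjusted p = 0.0175), but the sour-to-control ratio was 0.257 within plate 1 and 0.866 within plate 3, and the call was lost without sour pool 1 (adjusted p = 0.193). Of its 50-base windows, 50.3% also occur in other annotated entries, and the entry with the most of them carries the same symbol, Atp5o. How reads of these windows were counted is not given, so its counts are uncertain. The catalytic subunit gene Atp5b had the highest level per transcript length in the control pools of the 102 genes with a length. It stood at 2969, 3816, 3854 and 2816 CPM there, against 2007 and 2838 CPM in the sour pools (log2 -0.51, SE 0.33, edgeR adjusted p = 0.292). The group ranges met, since sour pool 2 exceeded control pool 6. The 3 genes for the identical c subunit of the rotor ring, Atp5g1, Atp5g2 and Atp5g3, had Atp5g3 as the highest per transcript length in every pool. It made up 87.5% and 88.5% of their summed level in the sour pools against 85.5% to 93.6% in control pools, where a long annotated transcript of Atp5g1 (4715 bases) lowers that gene's part. Atp5g2 was too low to test, and 87.4% of its windows occur in another annotated gene.

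The assembly factors among the 103 genes, which build complexes without being part of them, had the highest median of the 6 groups, 0.13. Complex II, at 0.03, was the other above 0. The 15 tested assembly factors with other names, read below as a related list, had a median of -0.24, with 0 higher and 1 lower. Ndufaf3 and Sdhaf1 fall outside the rule for naming genes and were picked after their values were seen. Ndufaf3, an early complex I assembly factor (chr9:108565537-108567434, minus strand, GRCm38), had 114 and 175 CPM in the sour pools and 26.4, 31.5, 48.1 and 29.1 CPM in control pools 1, 2, 4 and 6. The sour pools were all higher, 4.28-fold on average (log2 2.05, SE 0.46, edgeR adjusted p = 0.00357), with ratios of 3.94 within plate 1 and 6.02 within plate 3. The call was lost without sour pool 2 (adjusted p = 0.0648). Single sour cells had reads of it in 33 of 52 cells, with a median of 44 CPM per cell and 97.4 CPM over their pooled reads, above every control pool. Sdhaf1, which helps load iron-sulfur clusters into Sdhb, had 81.9 and 74.3 CPM in the sour pools and 23.5, 28.9, 26.7 and 20.4 CPM in the control pools (log2 1.62, SE 0.53, edgeR adjusted p = 0.0324). Over the pooled single sour cells it had 48.5 CPM, with reads in 18 of 52. Its call held in 5 of 12 alternative analyses and was lost with DESeq2 (adjusted p = 0.0911), with no filter on low counts, without either sour pool and without control pool 1, 2 or 6. Of its windows, 69.0% lie in the overlapping gene E130208F15Rik on the other strand, so without a stated strand its reads cannot be told apart from that gene's. Of the 7 complex IV factors tested, such as Cox10 and Cox15 of heme a synthesis, 0 passed edgeR's test or DESeq2's, and 0 had an unadjusted p under 0.05.

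The promoters of 4 called genes are shown because they are the called gene of complexes II, III and V and the assembly factor with the smallest p; Ndufa4l2 has none printed. Each runs from 250 bases before to 50 bases after the annotated start (RefSeq, GRCm38.p6), 5′ to 3′ on the gene's own strand. Capitals mark matches on either strand to the letters searched: GCATGC (core of the site of NRF1, a regulator of respiratory genes), CCGGAAG (core of the ETS site bound by GABP), ATGGCGG (YY1), ACGTG (hypoxia response core) and CCAAT (bound by NF-Y).
Sdha, chr13:74350191-74350490, minus strand: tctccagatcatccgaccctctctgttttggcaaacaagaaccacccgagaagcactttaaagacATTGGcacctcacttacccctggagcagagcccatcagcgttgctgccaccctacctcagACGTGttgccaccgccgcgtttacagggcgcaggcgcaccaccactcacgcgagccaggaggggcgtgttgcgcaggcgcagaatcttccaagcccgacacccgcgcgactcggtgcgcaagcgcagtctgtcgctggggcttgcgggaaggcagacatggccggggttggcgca
Uqcrc1, chr9:108936398-108936697, plus strand: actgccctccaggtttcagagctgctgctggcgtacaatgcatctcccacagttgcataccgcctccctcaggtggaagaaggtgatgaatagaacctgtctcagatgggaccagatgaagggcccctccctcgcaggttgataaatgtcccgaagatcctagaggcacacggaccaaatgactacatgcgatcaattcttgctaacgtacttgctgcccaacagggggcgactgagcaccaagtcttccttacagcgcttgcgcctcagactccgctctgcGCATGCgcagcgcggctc
Atp5o, chr16:91931581-91931880, minus strand: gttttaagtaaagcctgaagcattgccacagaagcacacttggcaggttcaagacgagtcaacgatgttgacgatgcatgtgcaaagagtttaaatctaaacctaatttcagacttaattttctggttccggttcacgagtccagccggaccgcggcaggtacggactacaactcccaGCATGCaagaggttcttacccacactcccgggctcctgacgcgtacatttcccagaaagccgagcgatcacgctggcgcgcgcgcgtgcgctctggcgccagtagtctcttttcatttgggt
Ndufaf3, chr9:108567387-108567686, minus strand: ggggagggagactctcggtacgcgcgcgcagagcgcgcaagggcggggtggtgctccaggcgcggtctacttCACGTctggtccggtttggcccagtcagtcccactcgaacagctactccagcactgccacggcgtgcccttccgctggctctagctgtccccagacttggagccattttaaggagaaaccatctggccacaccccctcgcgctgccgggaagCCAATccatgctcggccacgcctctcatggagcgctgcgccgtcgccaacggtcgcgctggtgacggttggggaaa
Of the 9 called genes, 8 have a promoter in the table. GCATGC was in Uqcrc1 and Atp5o and not in the other 6. The hypoxia response core was in Sdha, Ndufaf3 and Sdhaf1, and the NF-Y letters were in these and in Ndufs6. CCGGAAG was in Sdhaf1 and ATGGCGG in Ndufs6, and Ndufa10 and Ndufb8 held none of the 5. Over the 85 of 103 genes with a promoter in the table, GCATGC was found in 16.5%, CCGGAAG in 27.1%, ATGGCGG in 16.5%, ACGTG in 25.9% and CCAAT in 43.5%. Over all 27025 promoters of the same length the shares were 7.94%, 9.12%, 4.19%, 19.7% and 37.9%. A match is a run of letters, not a bound site.

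In single sour cells, 24 to 90 of the 103 genes had a read per cell, with a median of 74. A gene among the 89 tested in pools had reads in 80.8% of cells at the median, against 38.5% for all genes tested in pools. Uqcr10 and Ndufa4 were seen in the most cells, 50 of 52 each. The most abundant by transcript length were Cox4i1 (774 CPM per kilobase over the pooled cells), Ndufa4 (649) and Atp5j (636), a coupling subunit of the ATP synthase. The order of the genes by level per length was much the same between sour pools and single sour cells (Spearman's rho 0.89 over 102 genes with a transcript length) and between sour and control pools (0.93), a description over genes that share libraries. Across the 52 cells the shares of reads on complexes I and IV moved together most (rho 0.51), and the lowest value was between complexes II and III (-0.22); these shares come from the same libraries and reads per cell. Across the 371 neurons the same pairs had rho of 0.52 and 0.14.

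Other genes of energy metabolism were read as lists. Of 18 citric acid cycle genes tested, 0 rose and 2 fell, with a median log2 fold change of -0.41. Cs, citrate synthase, had 300 and 191 CPM in the sour pools and 449, 585, 460 and 500 CPM in the control pools (log2 -1.04, edgeR adjusted p = 0.0312), and Idh3a, of isocitrate dehydrogenase, fell by 1.30 on the log2 scale (edgeR adjusted p = 0.0202); the call of Cs was lost without sour pool 2 and without control pool 2 or 6, and that of Idh3a without either sour pool. Of 18 glycolysis and lactate genes tested, 4 rose and 2 fell, with a median of 0.16. Aldoc, an aldolase known from brain, had 280 and 435 CPM in the sour pools and 38.2, 21, 8.02 and 11.6 CPM in the control pools (log2 4.04, edgeR adjusted p = 2.6e-05). Eno2, the neuronal enolase, had 96.7 and 143 CPM against 0, 0, 10.7 and 2.91 CPM (log2 5.15, edgeR adjusted p = 0.000483). Pfkp, a phosphofructokinase, fell by 1.86 on the log2 scale (edgeR adjusted p = 0.00275), without a call when sour pool 1 was left out. Lists are described by these counts beside the 15.1% and 14.5% of all genes, and no list was tested as a whole.

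Of 11 carrier, cytochrome c and creatine kinase genes tested, 1 rose and 3 fell. Ckb, the brain creatine kinase, which works in the cytosol, had 1451 and 1639 CPM in the sour pools and 0, 55.1, 10.7 and 5.82 CPM in control pools 1, 2, 4 and 6 (log2 6.48, SE 0.75, edgeR adjusted p = 1.9e-05). Ckmt1, the ubiquitous mitochondrial creatine kinase, had 454 and 403 CPM against 1145, 1299, 1999 and 1423 CPM (log2 -1.80, SE 0.36, edgeR adjusted p = 0.00136). The 2 creatine kinases thus moved in opposite directions, with no overlap between groups for either. Slc25a5, an ADP/ATP carrier, fell by 1.37 on the log2 scale (edgeR adjusted p = 0.0157), without a call when sour pool 2 was left out. Of 7 regulators of mitochondrial biogenesis tested, 1 fell: Pprc1, a coactivator of the PGC-1 family, had 9.92 and 0 CPM against 67.6, 68.2, 16.0 and 64.0 CPM (edgeR adjusted p = 0.0242), and its call was lost without sour pool 2 and without control pool 1, 2 or 6. Of 15 further assembly factors 1 fell: Acad9, of complex I assembly, had 54.6 and 42.4 CPM against 204, 173, 110 and 198 CPM (edgeR adjusted p = 0.00599), and its call was lost without sour pool 2.

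In the geniculate ganglion, neurons with much Piezo2, the mechanically gated channel known from touch and proprioceptive neurons, were set against the rest. Of the 371 neurons, 100 had at least 100 CPM of Piezo2 (Piezo2-high) and 271 had less; the lowest of the former had 108 CPM and the highest of the latter 99.1 CPM. Reads were summed per experiment and arm, and 6 of 8 experiments had at least 5 cells in both, 94 Piezo2-high and 172 other neurons. P2rx3, an ATP-gated channel of taste neurons, was at 2.45 to 444 CPM in the Piezo2-high sums and 1347 to 2550 CPM in the others (edgeR adjusted p = 0.0517). Of 7 tested neuron markers, P2rx3 among them, 0 rose and 2 fell. Their summed levels were 5784 to 7516 CPM in the Piezo2-high sums and 9293 to 11198 CPM in the others. Of 8 tested satellite glia and Schwann genes 1 rose and 0 fell. Over all genes tested 1.88% rose and 1.42% fell. Piezo2-high cells also had more reads, with a median of 1692640 against 962690. With every cell thinned to 193218 reads, the genes described here again had 0 calls.

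Of the 103 genes, 95 were tested in the ganglion, and 0 rose and 0 fell by edgeR's quasi-likelihood test, against 1.88% and 1.42% of 11300 genes. At an unadjusted p under 0.05 there were 6 of 95, 5 higher and 1 lower, against 15.0% of all genes. DESeq2, which over all genes called more than edgeR (counts in the last section), called 1 (Cox7a1). The median log2 fold change was 0.11, against -0.08 over all genes, and it was -0.02 without experiment JC05. By complex the medians were 0.17 (I), 0.23 (II), 0.08 (III), 0.11 (IV), 0.16 (V) and 0.00 (assembly factors). Outside Cox7a1, the subunits ranged from -0.83 (Atp5g2, a gene with few reads) to 0.56 (Ndufab1, the mitochondrial acyl carrier protein). The assembly factors ranged from -1.52 (Ndufaf2) to 0.76 (Cox16), both without a call. Standard errors of the 95 genes had a median of 0.21 on the log2 scale, against 0.74 over all genes. Piezo2-high sums were higher in 6 of 6 experiments for 3 genes and lower in 6 of 6 for 4, against 5.12% and 7.66% of all genes.

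**Figure D4:**
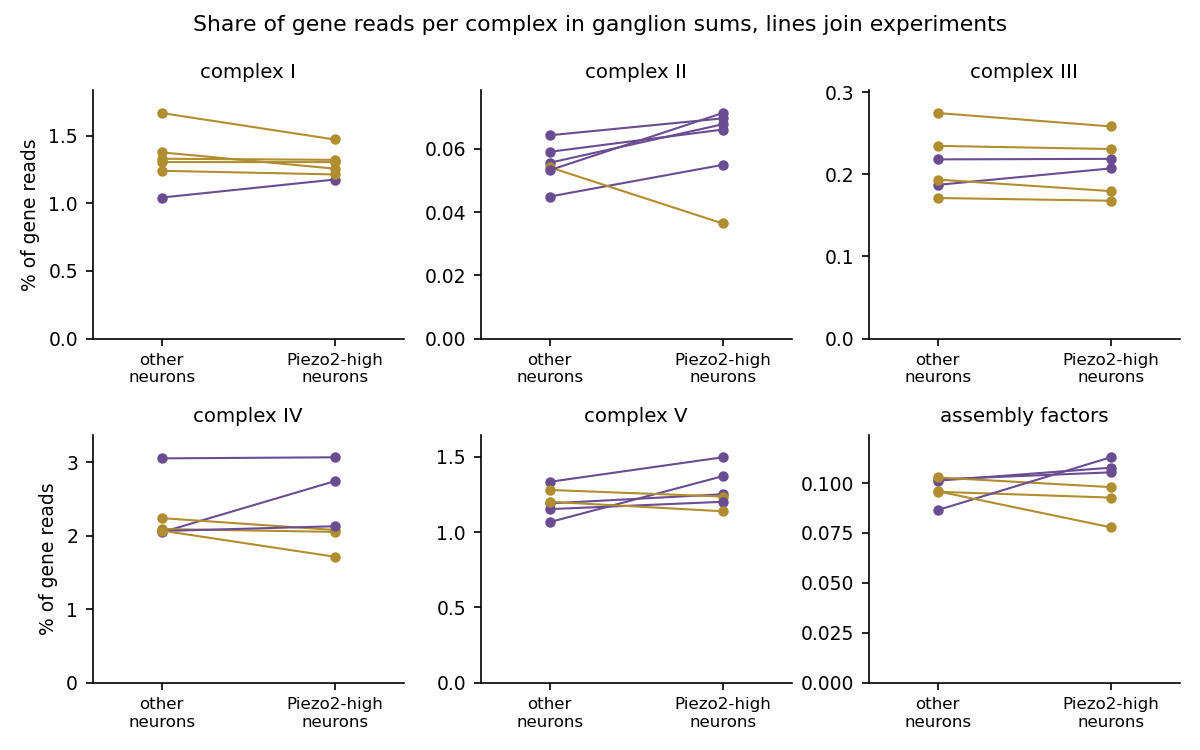
Percent of gene reads on each complex (vertical axes, each from 0) in sums of other and of Piezo2-high geniculate neurons; each line joins the 2 sums of 1 of 6 experiments, purple where the Piezo2-high sum is higher and gold where it is lower. The arms overlap in all 6 panels.

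Shares of reads in the ganglion overlapped for every complex. All 103 genes took 4.56% to 6.47% of reads in the Piezo2-high sums and 4.47% to 6.49% in the other sums, and the Piezo2-high sum was higher in 3 of 6 experiments. Complex II was higher in 5 of 6 experiments and complex I in 1 of 6. In single neurons the share had a median of 4.99% for the 100 Piezo2-high cells (range 1.42% to 8.36%) and 4.88% for the 271 others (0.907% to 13.4%). By experiment, over all 8, the median per neuron ran from 4.67% (JC05) to 6.30% (JC04, 17 cells). The ganglion shares are not compared with those of the taste libraries, because 3′ tagging and full-length copying weigh short transcripts differently.

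The genes nearest to the threshold in the ganglion are named for reference. Atp5a1, of the catalytic head of the ATP synthase, had 2415, 2522, 2800, 2237, 2550 and 1994 CPM in the Piezo2-high sums of experiments JC04, JC05, JC07, JC08, JC09 and JC11. The other sums had 1801, 2171, 2303, 2098, 2403 and 1666 CPM in the same order. The Piezo2-high sum was higher in each experiment, though the arms overlap (log2 0.34, SE 0.11, edgeR adjusted p = 0.135). Ndufv1 was likewise higher in 6 of 6 experiments (log2 0.53, SE 0.19, edgeR adjusted p = 0.187), and so was Ndufb8 (0.38, SE 0.15, adjusted p = 0.248). Ndufc2, a membrane-arm subunit of complex I, was lower in 6 of 6 (log2 -0.45, SE 0.18, edgeR adjusted p = 0.237). Ndufa4 had 5095, 8088, 3175, 3138, 4884 and 3494 CPM in the Piezo2-high sums against 5186, 4258, 3220, 3165, 3206 and 2026 CPM (log2 0.48, SE 0.17, edgeR adjusted p = 0.165). Its CPM were higher in 3 of 6 experiments.

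The gene with the most 3′ tags in each of the other complexes did not pass the test. Cox6c of complex IV, the gene with the most of the 103, averaged 5773 ± 1276 CPM (SD, n = 6) in the Piezo2-high sums and 6729 ± 1733 CPM in the others, and the Piezo2-high sum was lower in 5 of 6 experiments (log2 -0.11, SE 0.13, edgeR adjusted p = 0.825). Ndufc1 of complex I averaged 1410 ± 236 and 1741 ± 602 CPM (edgeR adjusted p = 0.829), and Uqcr11 of complex III 599 ± 235 and 625.4 ± 270.4 CPM (edgeR adjusted p = 0.885), each higher in 3 of 6 experiments. Sdha of complex II averaged 183 ± 70.0 and 155 ± 22.4 CPM, and was higher in 4 of 6 (edgeR adjusted p = 0.709). Uqcrc1, the gene with the widest gap in the tongue comparison apart from Ndufa4l2, averaged 117 ± 16.1 and 97.1 ± 20.8 CPM (log2 0.40, SE 0.25, edgeR adjusted p = 0.544).

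**Figure D5:**
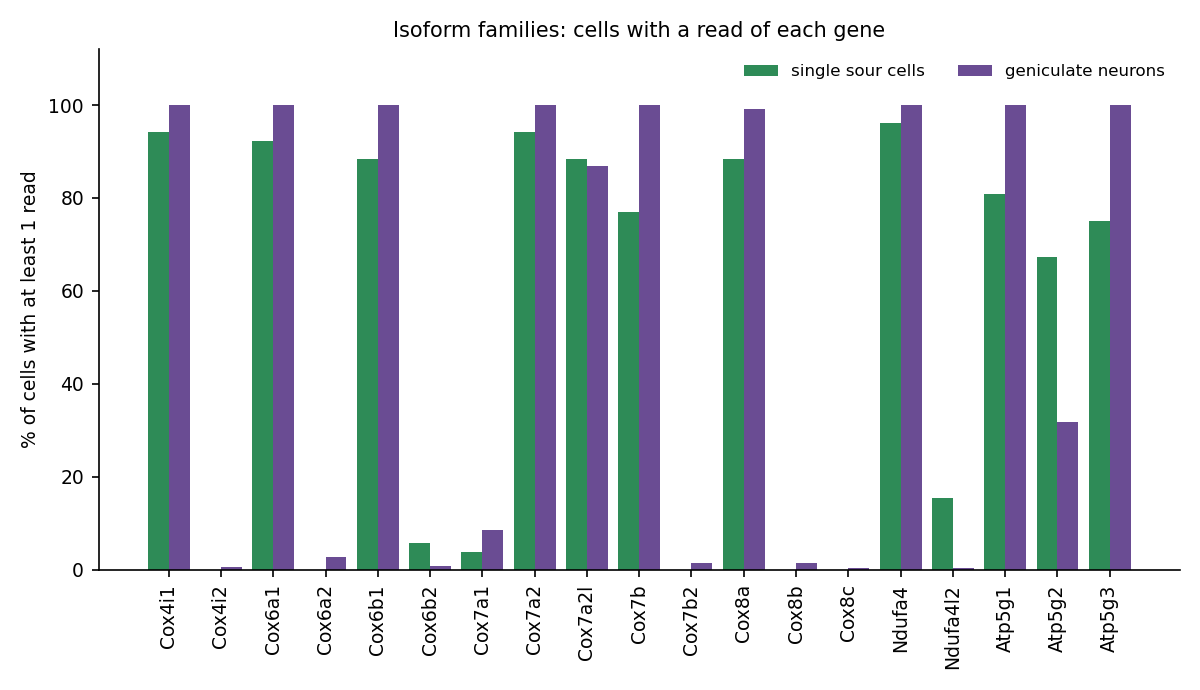
Percent of cells with at least 1 read (vertical axis, from 0) of each gene of the isoform families (horizontal axis) among 52 single sour cells (green) and 371 geniculate neurons (purple). Widely used forms other than Atp5g2 are seen in most cells of both kinds, and Cox4i2, Cox6a2, Cox6b2, Cox7a1, Cox7b2, Cox8b and Cox8c in few or none. Atp5g2 is seen in 35 sour cells and 118 neurons, and Ndufa4l2 in 8 sour cells and 1 neuron.

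Of the tissue-specific forms, Cox7a1 was the one with enough reads to test in the ganglion. It was seen in 32 of 371 neurons. The Piezo2-high sums had 34, 2.74, 5.35, 5.45, 3.87 and 50.0 CPM in experiments JC04, JC05, JC07, JC08, JC09 and JC11, and the other sums 21.2, 0.437, 0.260, 0.743, 4.73 and 9.17 CPM. The Piezo2-high sum was higher in 5 of 6 experiments (log2 2.24, SE 0.95, edgeR adjusted p = 0.290), while DESeq2 gave an adjusted p of 0.00925 and so called it. Cox7a1 made up 0.433% to 5.75% of the reads of Cox7a1, Cox7a2 and Cox7a2l in Piezo2-high sums and 0.0301% to 2.27% in the others. Skeletal muscle markers summed to 2.38 to 19.3 CPM in the Piezo2-high sums and 0 to 15.5 CPM in the others, and their part in this was not tested. Cox6a2, the heart and muscle form of Cox6a, was seen in 9 of 100 Piezo2-high neurons and 1 of 271 others, and Cox8b in 5 and 0. Cox7b2 was seen in 1 and 4, Cox6b2 in 2 and 1, Cox4i2 in 1 and 1, and Ndufa4l2 and Cox8c in 1 neuron each. These had too few reads to test over experiments, and Piezo2-high cells had more reads, the part of which in these counts was not tested. For Cox6a2, most of the CPM of the Piezo2-high sums lay in experiment JC04, and the Piezo2-high sum of JC09 had 0. The Piezo2-high sum of Cox6a2 was higher in 4 of 6 experiments and lower in 1. No share over all genes is given here for such counts of cells, so they are not read as a trait of Piezo2-high neurons. In the c subunit family Atp5g3 led here too, by 3′ tags and not per transcript length as in the tongue. It had 62.9% to 77.0% of the family's reads in Piezo2-high sums and 53.7% to 77.0% in the others. Atp5g1 held 22.9% to 45% over both arms.

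Of the related lists, 1 gene was called in the ganglion. Ldhb, the lactate dehydrogenase subunit of oxidative tissues, had 723, 773, 525.5, 648, 485 and 580 CPM in the Piezo2-high sums and 292, 216, 254, 345, 215 and 227 CPM in the others. The arms did not overlap (log2 1.38, SE 0.18, edgeR adjusted p = 0.00365, higher in 6 of 6 experiments). The call was lost when sums of at least 2 cells were let in (adjusted p = 0.0788). The other 18 tested glycolysis and lactate genes, 18 citric acid cycle genes, 13 biogenesis regulators, 11 carriers and creatine kinases and 23 further assembly factors had 0 calls by edgeR. Of these, 12 had an unadjusted p under 0.05. Among the same genes DESeq2, which over all genes called more than edgeR, called 5 (Ckmt1, Hk2, Nrf1, Polg and Slc25a31). In sour against control pools Ldhb was not called (49.6 and 5.31 CPM against 44.1, 21, 69.5 and 23.3 CPM).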

How the data were processed

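The authors deposited raw read counts per gene symbol for tongue libraries and for geniculate neurons. STAR, HTSeq and the build GRCm38, also called mm10, are named in the submitters' processing notes; versions and strand are not given in the sources used here. In the taste table the line for reads aligned to several places was 0; how such reads were treated is not given in the sources used here. The counts are reads, not unique molecules. Left out were symbols turned into dates (27 and 25 lines, at most 3.10% and 4.38% of a library's reads), 92 spike-in controls, the HTSeq summary lines (13.1% to 18.6% of a pool's reads lay outside genes) and reporter lines. No 2 columns were identical; CEL-Seq cell numbers repeat across adapters by design.

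Pools were compared with edgeR 4.0.16 (R 4.3.3; quasi-likelihood test, TMM scaling, its filter for low counts). Ganglion reads were summed per experiment and Piezo2 arm, with experiment as a covariate (experiments pair the arms by design), Piezo2 left out and sums under 5 cells not used. p-values were adjusted over all genes tested, with 0.05 as the threshold. Counting intervals and limits (95%, exact) cover counting error only. Levels per kilobase use protein-coding transcript lengths of GENCODE M21 (GRCm38), the source of coordinates. Transcripts marked there as principal came first, and the longest of these was used, or the longest of all where none was marked. Of 103 genes, 102 matched. Fits were tested on simulated data. DESeq2 1.42.0, other scalings, filters, thresholds and left-out libraries were alternatives; the fits with plate were added after seeing the data.

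Named genes were, per comparison and complex, up to 4 called genes per direction by p, else the 2 with the highest level, all genes of the isoform families, and up to 3 called genes of each related list. Genes outside it are said to be chosen after their values were seen, and those nearest to the threshold in the ganglion were too. The members and lists were chosen with earlier results of these data known. Depth was 188502 to 680952 gene reads per pool, 219578 to 914244 per single sour cell used and 9299 to 12716808 per neuron used.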

Additional observations from a re-analysis of the deposited data

Results flagged for a closer look

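Groups of 4 or 6 libraries were examined for a value far from the others (82 groups; chance alone flags about 1 in 20), and 7 had one. In the control pools, pool 4 stood highest for complex II (0.125% of reads) and for complex III (0.538%). In the ganglion, Sdha was highest at 199 CPM in the other neurons of experiment JC11, and Uqcr11 (1060 CPM) and Cox7b (2590 CPM) were highest in the Piezo2-high sum of JC04. Atp5g3 was highest at 2276 CPM in the other neurons of JC08, and complex IV at 3.05% of reads in the other neurons of JC04. No call in the report rests on these ganglion values.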

How the results depend on the processing

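Uqcrc1 and Ndufa4l2 kept their calls in all 12 alternatives. The other 7 called members lost their calls in 1 to 7 of 12. Leaving out each pool in turn, the genes described here numbered 1 to 3 higher and 2 to 6 lower, all genes 639 to 1306 higher and 761 to 1207 lower, and the median log2 fold change of members ran from -0.79 to -0.0315. With no filter on low counts, 1 member was higher. On plate 1 alone, 17 members were lower and the median was -0.70; this alternative has 1 sour library, assumed to vary like the controls. No count over all genes is given here for the plate 1 fit. Its count of members is therefore not read as a fall particular to these genes. Leaving out each experiment in the ganglion gave 0 member calls, 102 to 160 genes higher, 70 to 105 lower and a member median of -0.0151 to 0.17. DESeq2 gave 1 member higher, 734 genes higher and 1326 lower there, and no filter on low counts gave 1, 358 and 399; Cox7a1 was the member DESeq2 called, and Ndufa4 the member called with no filter. Sums of at least 2 cells gave 93 genes higher, and leaving out the 25% of cells richest in glial reads gave 102 lower. With no replicate block the ganglion counts were 0 members, 191 genes higher and 118 lower, with a member median of 0.13. Single cells with at least 2000 genes gave a median share of 84.1% of cells per member, against 75.0%, and a median level of 80.2 CPM, against 68.7. A call rule with at least 2-fold left 2 members higher and 6 lower in the pools. The counts over all genes under that rule are not given here. No called value changed sign; the ganglion member median, which has no call, was also below 0 with thinned cells (-0.0057). The 2 sour pools limit the tongue comparison. In the ganglion fit the members had a median standard error of 0.21 on the log2 scale, against 0.74 over all genes tested. The causes of these shifts were not tested.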
